A study of Mus musculus with 9 samples.

Results

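The genes described here mark cholangiocytes, the epithelial cells that line bile ducts, and the ductular reaction, in which cells with biliary markers expand along the portal tracts of an injured liver. They are 9 genes chosen by symbol, namely Sox9, Krt7, Krt19, Krt23, Epcam, Cd24a, Prom1, Cldn4 and Cldn7, out of 24008 genes with a count in liver RNA sequencing. Cldn7 had too few counts for the test, so 8 of the 9 were among the 14379 genes tested. Cldn4 passed the filter on low counts only through its F4MKO libraries and failed it in the other 6. It therefore had to be higher in F4MKO to be tested. Median fold changes of the biliary genes and the main counts of calls below are over the 7 other tested genes, with Cldn4 given apart. The correlations below include it. Liver RNA came from 3 groups of 3 mice on the C57BL/6J background, with 1 library per mouse, and all the mice carried floxed Irf4 alleles (IRF4 flox/flox) and were fed a NASH diet high in fat and carbohydrate. The study's reporting summary gives 8-week-old male mice. It does not give their age when the livers were collected, after the weeks of diet stated below. Flox mice were the controls (the labels call this group WT), F4MKO mice had Irf4 deleted in skeletal muscle by a Myl-Cre transgene, and F4MKO + FSTL1 mice were F4MKO mice given an AAV8 vector that expresses FSTL1, a secreted muscle protein, from the muscle creatine kinase promoter in the gastrocnemius. The study's methods place an AAV-GFP control vector in Flox and F4MKO mice, while the labels name no vector for these groups. The methods give 24 weeks of diet for the experiment and 12 weeks in the section on the vector, with 4 weeks between injection and collection. The labels do not give the sex of these mice, and nothing in them ties same-numbered mice of different groups.

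In a healthy liver these genes are expressed mainly in the biliary tree, which is a small part of the tissue. SOX9 is a transcription factor of duct progenitors and mature cholangiocytes, KRT7 and KRT19 are the keratins by which pathologists recognise bile ducts, and EPCAM, CD24 and PROM1 (CD133) are surface proteins used to sort biliary and progenitor cells. Ductular cells are known to accompany fibrosis and inflammation in chronic liver injury, and hepatocytes under stress can also switch on Sox9 and some other biliary genes. In whole liver, fewer cells of a type and less RNA per cell cannot be told apart. The genes lie on GRCm38 (GENCODE vM21) at chr17:87635979-87651129 (Epcam), chr10:43578284-43584265 (Cd24a), chr5:43993620-44102032 (Prom1), chr5:134945119-134946934 (Cldn4), chr15:101411043-101430313 (Krt7) and, on chromosome 11, chr11:69964779-69967885 (Cldn7), chr11:99477974-99493137 (Krt23), chr11:100140810-100148665 (Krt19) and chr11:112782224-112787760 (Sox9). All 9 encode proteins.

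The libraries held between 20656976 and 24322984 counts on genes. The 10 hepatocyte markers summed to between 75610 and 107400 CPM (counts scaled to a common library size) in the 9 libraries, so hepatocyte RNA was present in all of them. Irf4 counts in the liver were 101 to 132 in Flox, 120 to 130 in F4MKO and 10 to 116 in F4MKO + FSTL1 libraries, and they do not check a deletion made in muscle. F4MKO replicate 1 stood apart from the other libraries, with the highest TMM normalization factor (1.17) and the lowest sum of hepatocyte markers (75610 CPM). All 9 biliary genes were highest in this library, which was the highest of the 9 libraries for 20.6% of all genes tested, so the main counts are given below with and without it.

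Promoter sequences are shown for 3 of the genes: Cldn4, which was near the limit of detection outside F4MKO, Epcam, the gene that passed the test in both, and Krt23, which did not pass in either. They are the 250 bases before the RefSeq transcription start on GRCm38.p6, read 5′ to 3′ on the strand of the gene, at chr5:134946935-134947184 (minus strand) for Cldn4, chr17:87635729-87635978 (plus strand) for Epcam and chr11:99493121-99493370 (minus strand) for Krt23, where the last bases lie in the first exon of the GENCODE vM21 model. Capitals mark matches to the letters searched for.
Cldn4: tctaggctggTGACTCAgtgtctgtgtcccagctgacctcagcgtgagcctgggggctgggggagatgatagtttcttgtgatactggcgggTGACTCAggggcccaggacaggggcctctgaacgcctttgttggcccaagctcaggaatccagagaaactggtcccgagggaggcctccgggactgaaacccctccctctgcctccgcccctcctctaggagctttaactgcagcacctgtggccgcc
Epcam: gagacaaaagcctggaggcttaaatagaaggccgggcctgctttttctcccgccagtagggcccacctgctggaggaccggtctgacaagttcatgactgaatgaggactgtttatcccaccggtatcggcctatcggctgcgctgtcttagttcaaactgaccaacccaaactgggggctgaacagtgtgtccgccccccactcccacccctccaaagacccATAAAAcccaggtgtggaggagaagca
Krt23: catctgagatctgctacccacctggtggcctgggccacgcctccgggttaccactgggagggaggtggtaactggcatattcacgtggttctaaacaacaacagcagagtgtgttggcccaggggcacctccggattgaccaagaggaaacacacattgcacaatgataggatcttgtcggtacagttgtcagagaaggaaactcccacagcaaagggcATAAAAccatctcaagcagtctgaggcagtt
The letters were chosen after these sequences had been seen, and were searched on both strands of 32851 promoter windows of the same length. The AP-1 motif TGACTCA was in 4.46% of all windows, and Cldn4 held it at 240 and 158 bases before the start. The TATA-like motif ATAAAA was in 17.0% of all windows, and stood 27 bases before the start in Epcam and 31 in Krt23. The motif letters GGAATG (TEAD, 12.6% of all windows), AACAAT (SOX, 9.42%), GTTAAT (HNF1, 6.43%), TGGGAA (RBPJ, 21.6%) and AACCNGTT (GRHL, 1.79%) were absent from these 3 windows, and none of the motifs searched overlapped in them. Of the 9 genes, 6 had a promoter entry (Krt7, Krt23, Epcam, Prom1, Cldn4 and Cldn7), and Sox9, Krt19 and Cd24a had none.

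In F4MKO compared with Flox livers, the 7 biliary genes tested apart from Cldn4 all had a higher mean, but only Epcam rose past the threshold (adjusted p under 0.05 over all genes tested and a fold change above 1.5). Of all genes tested, 0.16% rose by this rule and 0.23% changed in either direction. The median log2 fold change of the 7 genes was 1.11, against -0.01 for the 13780 genes that passed the filter without the F4MKO libraries. Adjusted p lay between 0.0510 and 0.0542 in edgeR's quasi-likelihood test for Cd24a, Krt19 and Prom1, and for Cldn4. Among the 7 genes, all 3 F4MKO libraries were above all 3 Flox libraries for Krt19, Epcam, Cd24a and Prom1, a pattern seen in 11.7% of all genes tested. The same held for Cldn4 and for the untested Cldn7, and the groups overlapped for Sox9, Krt7 and Krt23. After F4MKO replicate 1 was left out, 0 of the 8 genes were called in this comparison by edgeR, as was the case after any Flox library was left out. Without F4MKO replicate 2 the count was 4 and without F4MKO replicate 3 it was 3. DESeq2 called 5, and 2.23% of all genes it tested, and Cldn4 was among the genes called in each of these 3 fits.

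In F4MKO + FSTL1 compared with F4MKO livers, 5 of the 7 genes fell past the threshold, namely Krt7, Krt19, Epcam, Cd24a and Prom1, and Sox9 and Krt23 did not. Cldn4 also passed, but its place in the test rested on its F4MKO counts. Of all genes tested, 11.2% fell and 3.07% rose by the same rule. The median log2 fold change of the 7 genes was -1.90, against 0.02 for the 13780 genes. Among the 7 genes, all 3 F4MKO + FSTL1 libraries lay below all 3 F4MKO libraries for Krt7, Krt19, Epcam, Cd24a and Prom1. This pattern was seen in 21.1% of all genes tested, and also held for Cldn4 and the untested Cldn7. Without F4MKO replicate 1, 6 genes were called, Cldn4 included. The F4MKO libraries enter both comparisons, so the opposite directions are not independent of each other.

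In F4MKO + FSTL1 compared with Flox livers, 0 of the 8 genes passed the threshold in edgeR, where 0.0139% of all genes tested passed in either direction. In DESeq2 0 passed as well, although it called 284 genes, 2% of those it tested. One biliary gene, Krt19, had an unadjusted p under 0.05, as did 13.2% of all genes tested. Krt7 and Krt19 were lower in every F4MKO + FSTL1 library than in every Flox library, a pattern shown by 10.7% of all genes tested. Without Cldn4 the median log2 fold change was -0.38, and 6 of the 7 genes had a lower mean.

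**Figure D1:**
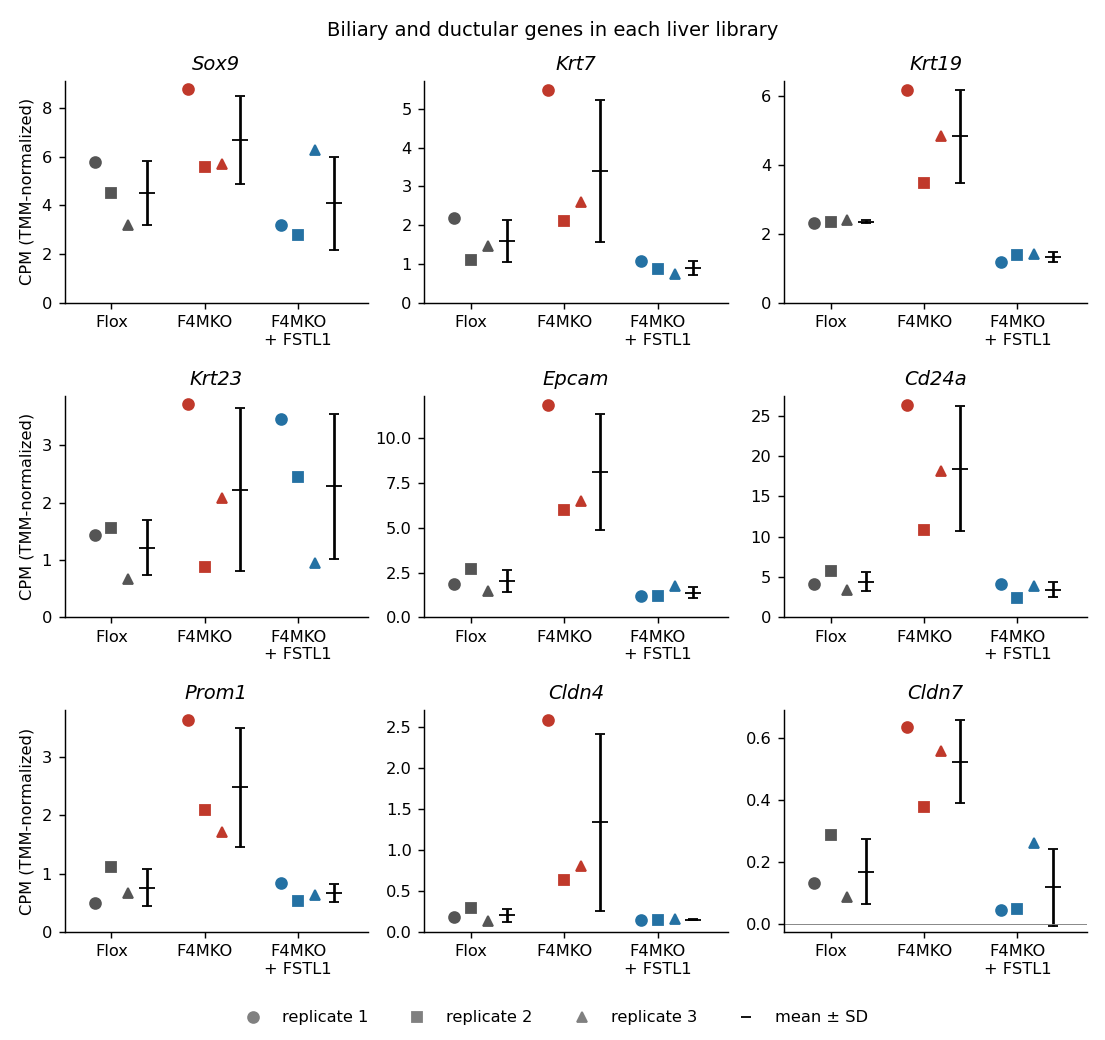
CPM after TMM normalization (vertical axis, linear, a separate scale for each gene) of the 9 biliary genes in each library of the 3 groups, with symbols for the replicate and the mean ± SD (n = 3 mice) at the right of each group. F4MKO replicate 1 is the highest library in all 9 panels, and the F4MKO + FSTL1 libraries lie below the F4MKO libraries in 7 of 9.

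Epcam, an adhesion protein of epithelial cells that marks cholangiocytes and is absent from mature hepatocytes, showed the clearest separation. It was at 1.87, 2.70 and 1.46 CPM in Flox replicates 1 to 3, at 11.8, 5.99 and 6.51 CPM in F4MKO, and at 1.17, 1.20 and 1.72 CPM in F4MKO + FSTL1. The F4MKO libraries did not overlap with those of either other group. Epcam rose by 2.01 on the log2 scale from Flox to F4MKO (standard error 0.30, edgeR adjusted p = 0.0344) and fell by 2.58 with FSTL1 (standard error 0.32, edgeR adjusted p = 0.000885). The difference between F4MKO + FSTL1 and Flox was -0.57 on the log2 scale (95% interval -1.32 to 0.18). In the first comparison the call depended on single libraries, because adjusted p was 0.135, 0.0540 and 0.108 without Flox replicates 1, 2 and 3, and 0.0985 without F4MKO replicate 1. The fold change was still 1.63 to 2.28 on the log2 scale in these fits.

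Cd24a, which encodes a small glycosylated surface protein found on biliary and progenitor cells and also on several blood cells, was the most abundant of the 9 genes per length in Flox and F4MKO livers. It was at 4.15, 5.70 and 3.42 CPM in Flox, 26.3, 10.8 and 18.1 CPM in F4MKO, and 4.07, 2.36 and 3.81 CPM in F4MKO + FSTL1. Even the lowest F4MKO library was above every library of the other groups. Its mean was 4.16-fold higher in F4MKO than in Flox livers, with an edgeR adjusted p of 0.0510 that missed the threshold. With FSTL1 it fell by 2.43 on the log2 scale relative to F4MKO (standard error 0.35, edgeR adjusted p = 0.00205).

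Prom1, which encodes the pentaspan membrane protein of apical protrusions known as CD133, had far fewer counts. Its values were 0.490, 1.11 and 0.666 CPM in Flox, 3.64, 2.09 and 1.72 CPM in F4MKO, and 0.841, 0.529 and 0.627 CPM in F4MKO + FSTL1. The F4MKO libraries again lay above all others. Prom1 differed by 1.71 on the log2 scale between F4MKO and Flox (95% interval 0.92 to 2.51, edgeR adjusted p = 0.0542) and by -1.90 between F4MKO + FSTL1 and F4MKO (95% interval -2.72 to -1.07, edgeR adjusted p = 0.00496). An antisense gene, Gm16401, overlaps an exon of Prom1, and Gm671 overlaps Krt7 in the same way. The use of strand in counting is not given in the sources used here, so reads of these partners cannot be told apart.

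The 3 keratins differed in pattern. Krt19, the keratin of the whole biliary tree from large ducts to ductules, was at 2.32, 2.34 and 2.40 CPM in Flox, the tightest group of any of the 9 genes (coefficient of variation 1.75%). It was at 6.19, 3.48 and 4.83 CPM in F4MKO and at 1.17, 1.39 and 1.41 CPM in F4MKO + FSTL1. No pair of groups overlapped, with F4MKO the highest and F4MKO + FSTL1 the lowest. On the log2 scale Krt19 differed by 1.04 between F4MKO and Flox (standard error 0.22, edgeR adjusted p = 0.0541), by -1.87 between F4MKO + FSTL1 and F4MKO (standard error 0.24, edgeR adjusted p = 0.000891) and by -0.83 between F4MKO + FSTL1 and Flox (standard error 0.25, edgeR adjusted p = 0.179).

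Krt7, a keratin of mature ducts and of hepatocytes that take on biliary features, was at 2.18, 1.11 and 1.46 CPM in Flox, 5.48, 2.09 and 2.60 CPM in F4MKO, and 1.07, 0.865 and 0.731 CPM in F4MKO + FSTL1. Flox replicate 1 was above F4MKO replicate 2, so the first groups overlapped, and F4MKO replicate 1 was 2.34 times the mean of the other F4MKO libraries. The increase in F4MKO of 1.11 on the log2 scale did not pass (95% interval 0.31 to 1.90, edgeR adjusted p = 0.167), whereas Krt7 fell by 1.93 with FSTL1 relative to F4MKO (standard error 0.40, edgeR adjusted p = 0.00601).

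Krt23, an acidic keratin known to be induced in diseased liver, passed the threshold in no comparison. It was at 1.43, 1.56 and 0.666 CPM in Flox, 3.71, 0.879 and 2.08 CPM in F4MKO, and 3.46, 2.45 and 0.940 CPM in F4MKO + FSTL1. All groups overlapped, and the mice of each group lay far apart. The log2 difference between F4MKO + FSTL1 and F4MKO was 0.03 (95% interval -1.21 to 1.27, edgeR adjusted p = 0.972), so a change of 2-fold in either direction lay within the interval. Per length, Krt23 stood at 0.329 to 0.790 of the level of Krt19 in Flox libraries, 0.300 to 0.711 in F4MKO libraries, and 0.790 to 3.51 in F4MKO + FSTL1 libraries. Whether Krt23 responded differently from the other keratins was not tested.

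Sox9 passed the threshold in no comparison. Its values were 5.80, 4.51 and 3.19 CPM in Flox, 8.77, 5.57 and 5.71 CPM in F4MKO, and 3.18, 2.79 and 6.27 CPM in F4MKO + FSTL1. Flox replicate 1 was above 2 of the F4MKO libraries, and F4MKO + FSTL1 replicate 3 was above both of these as well. The log2 difference was 0.57 between F4MKO and Flox (95% interval -0.12 to 1.27, edgeR adjusted p = 0.386) and -0.72 between F4MKO + FSTL1 and F4MKO (95% interval -1.43 to -0.02, edgeR adjusted p = 0.134). Without F4MKO + FSTL1 replicate 3 the second value was -1.16 and passed the threshold.

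The claudins are the strand-forming proteins of tight junctions, which seal the bile duct lumen, and Cldn4 and Cldn7 are typical of ductal epithelium. Cldn4 had 4, 7 and 3 counts in Flox, 73, 15 and 20 counts in F4MKO, and 3 counts in each F4MKO + FSTL1 library. Its F4MKO libraries were above the rest, and replicate 1 was 3.62 times the mean of the other F4MKO libraries. Summed over libraries, Cldn4 was 6.92-fold higher in F4MKO than in Flox (exact 95% interval 3.95 to 13.1) and 9.52-fold higher than in F4MKO + FSTL1 (exact 95% interval 4.83 to 21.4), where the intervals cover counting error only. The fitted log2 fold changes were 2.72 (standard error 0.59, edgeR adjusted p = 0.0542) and -3.16 (standard error 0.64, edgeR adjusted p = 0.00543). Without F4MKO replicate 1 they were 1.80 (edgeR adjusted p = 0.207) and -2.24 (edgeR adjusted p = 0.0141).

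Cldn7 had 3, 7 and 2 counts in Flox, 18, 9 and 14 in F4MKO, and 1, 1 and 5 in F4MKO + FSTL1. The F4MKO libraries lay above all others, as for Cldn4. Its summed level in F4MKO was 3.06-fold that of Flox (exact 95% interval 1.58 to 6.41) and 4.65-fold that of F4MKO + FSTL1 (exact 95% interval 2.06 to 12.3). In an edgeR fit without the filter on low counts the log2 difference was 1.58 between F4MKO and Flox (adjusted p = 0.175) and -2.14 between F4MKO + FSTL1 and F4MKO (adjusted p = 0.0169), and DESeq2 gave an adjusted p of 0.0544 for the second. The second call was also lost without F4MKO + FSTL1 replicate 1 or 2. The fits that leave out a library kept the filter, and Cldn7 entered them only through its F4MKO counts.

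**Figure D2:**
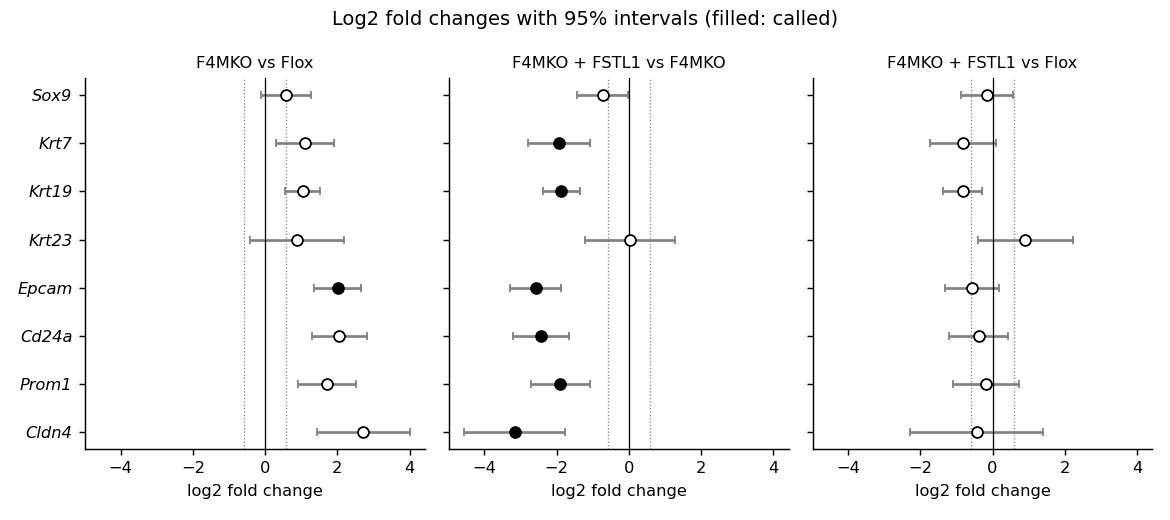
Log2 fold change (horizontal axis) of the 8 tested genes in each comparison with 95% intervals from the fit to all 9 libraries. Filled points passed the threshold and dotted lines mark a fold change of 1.5. Epcam is filled in the first panel, 6 genes are filled in the second and none in the third.

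The level of each gene was also compared per length of its exons, as RPKM, which is CPM per kilobase of exon. In Flox livers Cd24a was the highest at 1.71 ± 0.451 (SD, n = 3), above and apart from Krt19 (1.27 ± 0.0221). Krt19, Sox9, Epcam and Krt23 followed with overlapping ranges between neighbours, and Krt7, Cldn4, Prom1 and Cldn7 formed a lower set at means of 0.225 down to 0.0871 RPKM. In F4MKO livers the order was Cd24a at 7.13 ± 3.0, Epcam at 3.70 ± 1.48, Krt19 at 2.60 ± 0.732 and Sox9 at 1.62 ± 0.438 (SD, n = 3), and every neighbour in the order overlapped with the next. Epcam stood at 0.516 to 0.979 times Krt19 in Flox, 1.14 to 1.62 times in F4MKO and 0.729 to 1.03 times in F4MKO + FSTL1 libraries. In F4MKO + FSTL1 livers Krt23 came first at 1.46 ± 0.810 RPKM, and its range overlapped with that of Cd24a at 1.32 ± 0.358.

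Within the F4MKO group, differences between mice ran the same way for most of the genes. In this group all 9 genes were highest in replicate 1, and 8 of 9 were higher in replicate 3 than in replicate 2, with Prom1 the exception. Over all genes tested, 36.2% were highest in F4MKO replicate 1 among the F4MKO libraries and 49.8% were higher in replicate 3 than in replicate 2. The ratio of F4MKO replicate 1 to the mean of the other F4MKO libraries was 1.36 for Cldn7, 1.49 for Krt19, 1.90 for Epcam and 3.62 for Cldn4. The 9 genes summed to 69.2, 31.9 and 42.9 CPM in F4MKO replicates 1, 2 and 3, to between 13.5 and 19.6 CPM in Flox and to between 11.8 and 15.9 CPM in F4MKO + FSTL1. The lower F4MKO libraries, replicates 2 and 3, were also above every Flox library in this sum. In Flox livers Krt23, Epcam, Cd24a, Cldn4 and Cldn7 shared an order, with replicate 2 the highest and replicate 3 the lowest. Sox9, Krt7, Krt19 and Prom1 each had another order. The F4MKO + FSTL1 libraries gave no common order, since Sox9 was highest in replicate 3 and Krt7 and Krt23 in replicate 1.

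Across the 9 libraries, the 8 tested genes had a median Pearson r of 0.807 over their 28 pairs (log2 CPM). After the group means had been removed it was 0.605. Cldn4 is among the 8, and the filter required it to be higher in F4MKO, so its group pattern was partly set in advance. Medians without it were not calculated. For Krt7, Krt19, Epcam, Cd24a, Prom1 and Cldn4 the medians over 15 pairs were 0.913 and 0.652. These are the 6 genes called in F4MKO + FSTL1 compared with F4MKO livers, so they share that group difference by selection. Krt23 had a median r of 0.299 with the 7 other tested genes and Sox9 one of 0.687, and after the group means had been removed these were 0.454 and 0.425. All of these share libraries, the values before removal also hold the group differences, and 4 of the 9 genes (Sox9, Krt19, Krt23 and Cldn7) lie on chromosome 11. Other genes were compared with the mean of the 8 tested genes, Cldn4 included. Most like it over 9 libraries were Spp1 (r = 0.991), Bicc1 (0.983), Tspan8 (0.982), Kcnq1 (0.980) and Cacna2d1 (0.979). Of 14371 other genes, 1.98% had an r above 0.9. After the group means had been removed the first 5 were Scara3 (0.981), Snx1 (0.979), Lum (0.973), Bicc1 (0.968) and Spp1 (0.967), with 0.32% of genes above 0.9.

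**Figure D3:**
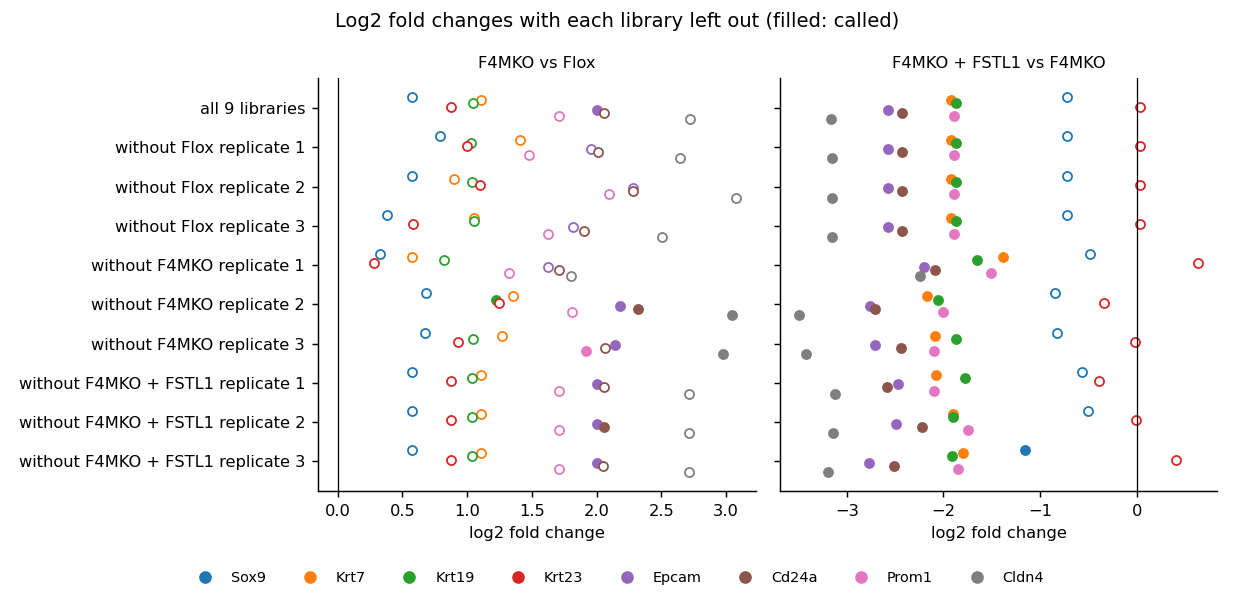
Log2 fold changes (horizontal axis) of the 8 tested genes in the fit to all 9 libraries (top) and in fits with each library left out (rows), with filled points for genes past the threshold. In F4MKO compared with Flox (left) all values stay above 0 and between 0 and 4 genes are called, and in F4MKO + FSTL1 compared with F4MKO (right) the 6 called genes stay below 0 while Krt23 lies on both sides of 0.

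Companion genes of the biliary programme were taken from 5 lists, with 67 of 68 symbols listed in the counts and 55 tested. In F4MKO compared with Flox livers 1 of 55 rose, Tspan8, and 0 fell, where 0.16% of all genes tested rose. The count was 0 without F4MKO replicate 1 or any Flox library, 4 without F4MKO replicate 3 and 9 in DESeq2. In this comparison DESeq2 called 2.23% of all genes it tested. In F4MKO + FSTL1 compared with F4MKO livers 21 of 55 fell and 0 rose, where 11.2% of all genes tested fell and 3.07% rose. Of these 21, Sctr, Ankrd1 and Cldn6 passed the filter only through the F4MKO libraries, as Cldn4 did, and 18 of the other 52 fell. Among all genes that passed the filter without the F4MKO libraries, 1429 of 13780 fell. In F4MKO + FSTL1 compared with Flox livers 0 of 55 passed in edgeR, 13 had an unadjusted p under 0.05 and 2 passed in DESeq2. The shares of all genes that each method tested were 0.0139%, 13.2% and 2%. The median log2 fold changes of the 55 genes were 0.33, -0.43 and -0.23 in the same order of comparisons. Without Sctr, Ankrd1 and Cldn6 they were 0.32, -0.42 and -0.20.

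Other epithelial genes of the bile duct gave 8 falls among 15 tested in F4MKO + FSTL1 compared with F4MKO livers. Tspan8, a tetraspanin of ductal epithelium, was at 1.70 ± 0.657 CPM in Flox, 8.90 ± 4.25 in F4MKO and 1.05 ± 0.203 in F4MKO + FSTL1 (SD, n = 3). It rose by 2.38 in the first comparison (edgeR adjusted p = 0.0379) and fell by 3.09 in the second (edgeR adjusted p = 0.000940). Elf3, an epithelial transcription factor, had a log2 fold change of -3.02 in the second comparison (edgeR adjusted p = 0.000899), from 2.68 ± 1.11 to 0.330 ± 0.139 CPM (SD, n = 3). Pkhd1, which encodes fibrocystin of the cholangiocyte cilium, and Bicc1, an RNA-binding protein of ductal cilia biology, fell by 1.67 and 1.79.

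Muc1, an apical mucin, fell by 2.65 in the same comparison, and Spp1 (osteopontin), which is secreted by ductular cells and also by macrophages, fell by 2.64. Spp1 had 1332, 1909 and 950 counts in Flox, 11232, 3420 and 5089 in F4MKO, and 975, 621 and 837 in F4MKO + FSTL1. Its groups did not overlap between F4MKO and either other group. Sctr, the secretin receptor, and Cdh1 (E-cadherin), which hepatocytes also express, fell by 2.14 and 1.13. Slc4a2, the anion exchanger of bicarbonate secretion, had a log2 fold change of 0.00, and Aqp1, a water channel shared with endothelial cells, one of 0.26. Cftr, the chloride channel of the cholangiocyte, was too low for the test, with 1, 4 and 1 counts in Flox, 42, 5 and 13 in F4MKO, and 1, 0 and 4 in F4MKO + FSTL1. Ggt1, Ehf and Gpbar1 were also too low for the test.

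Krt8 and Krt18 are the keratin pair that hepatocytes share with cholangiocytes. Krt8 was at 309 ± 39.7, 478 ± 29.6 and 275 ± 43.8 CPM in Flox, F4MKO and F4MKO + FSTL1 (SD, n = 3), and fell by 0.80 in F4MKO + FSTL1 compared with F4MKO (edgeR adjusted p = 0.00272). Krt18 had a log2 fold change of -0.51 in this comparison (edgeR adjusted p = 0.0408), under the fold change of 1.5. Both changes were smaller than those of the 6 called biliary genes, and that difference was not tested.

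Notch signalling directs biliary fate through SOX9 and HES and HEY factors. With FSTL1 relative to F4MKO livers, 11.2% of all genes tested fell and 3.07% rose. Of 11 tested genes of this pathway 0 rose and 4 fell. These were Sox4 (-1.79), a SOX factor that acts with SOX9 in duct formation, Heyl (-1.40) and Hey1 (-1.21), which are Notch target repressors, and the ligand Jag1 (-0.63), with edgeR adjusted p from 0.00838 to 0.0294. Hes1, another target, had a log2 fold change of -0.17 and Rbpj, the DNA-binding partner of Notch, one of -0.07. Dll4 of the same list had 0.37 (edgeR adjusted p = 0.219), with every F4MKO + FSTL1 library above every F4MKO library. It was the 1 gene of this list with a positive value, and 10 had a negative one.

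YAP, the effector of the Hippo pathway, and TWEAK, a cytokine of the TNF family, are known drivers of ductular expansion. Of 13 tested genes of these pathways 5 fell with FSTL1 relative to F4MKO livers, and 0 rose. The shares that fell and rose over all genes tested were 11.2% and 3.07%. Ankrd1, a YAP target, had 27, 17 and 7 counts in Flox, 109, 27 and 48 in F4MKO, and 8, 2 and 5 in F4MKO + FSTL1, with a log2 fold change of -3.22 (edgeR adjusted p = 0.00534). Ankrd1 is among the 5, but its place in the test rested on its F4MKO counts, as for Cldn4. Tnfrsf12a, the TWEAK receptor Fn14, fell by 1.25, Ajuba by 1.33, Axl by 1.01 and Tead1, a DNA-binding partner of YAP, by 0.83. Among the genes that did not pass were Ctgf (log2 fold change -1.37), Cyr61 (-0.23), Fgfr2 (0.16), Amotl2 (0.30) and Yap1 itself (0.21). For Amotl2 every F4MKO + FSTL1 library lay above every F4MKO library. In this list 3 genes had a positive log2 fold change and 10 a negative one.

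Among 14 other claudins and tight junction genes, 3 fell in F4MKO + FSTL1 compared with F4MKO livers, among them Cldn6 (-2.09) and Marveld2 (-0.65), and 0 rose. Of all genes tested, 11.2% fell in this comparison. The abundant claudins of liver did not pass the threshold, with log2 fold changes of -0.41 for Cldn1, -0.15 for Cldn2 and 0.25 for Cldn3. Cldn6 resembled Cldn4 and Cldn7 in its low level, at 0.478 ± 0.253, 1.39 ± 0.835 and 0.328 ± 0.0888 CPM in Flox, F4MKO and F4MKO + FSTL1 (SD, n = 3). Like Cldn4, it passed the filter on low counts only through its F4MKO libraries.

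**Figure D4:**
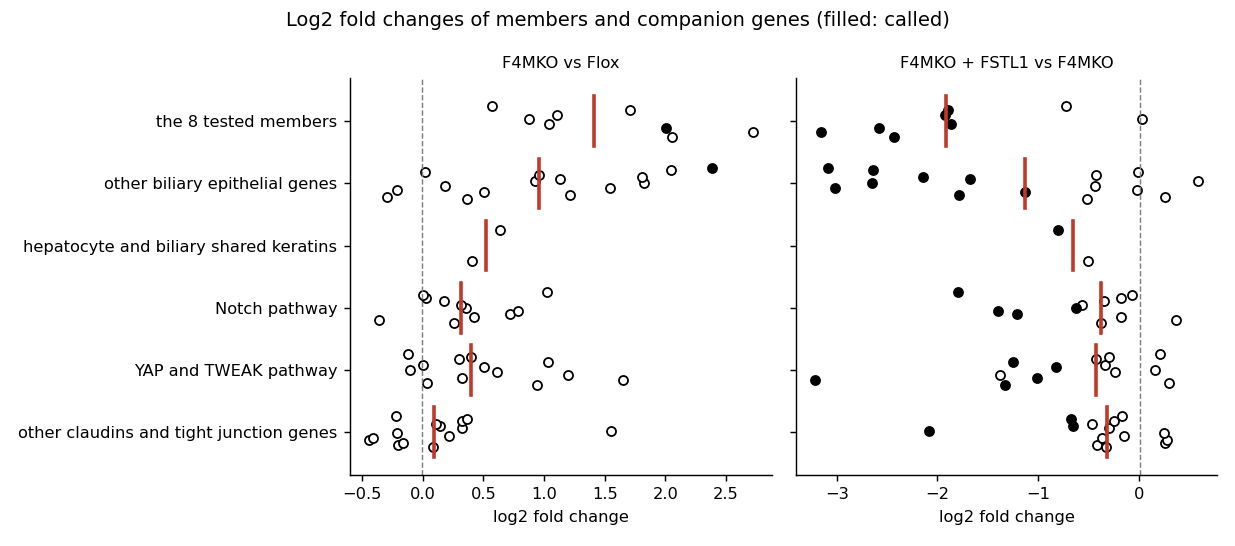
Log2 fold changes (horizontal axis) of the 8 tested biliary genes and of each companion list, with 1 point per gene, filled where the gene passed the threshold, a bar at the median of the list and a dashed line at the median of all genes tested. The 15 other biliary genes have medians of 0.96 and -1.13, and the medians of the Notch, YAP and tight junction lists lie closer to that of all genes. Cldn4, Sctr, Ankrd1 and Cldn6 are included.

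Genes of other cells moved with some of these differences, and their part in them was not tested. The falls counted here are in F4MKO + FSTL1 compared with F4MKO livers, where 11.2% of all genes tested fell. The 7 proliferation markers all fell in F4MKO + FSTL1 compared with F4MKO livers, with summed levels of 12.7 to 24.5 CPM in Flox, 29.0 to 38.5 in F4MKO and 3.51 to 7.31 in F4MKO + FSTL1. Of 8 macrophage markers 5 fell, and the sum was 412 to 636 CPM in Flox, 498 to 575 in F4MKO and 263 to 380 in F4MKO + FSTL1. Of 8 stellate cell markers 2 fell, with sums of 519 to 567, 574 to 654 and 377 to 516 CPM in the same order. The sum of 6 neutrophil markers, which is of interest because Cd24a is also on neutrophils, was 8.12 to 9.01 CPM in Flox, 10.7 to 15.3 in F4MKO and 5.10 to 8.04 in F4MKO + FSTL1, with 1 of 4 tested markers called lower and Ly6g near 0 in every group. B cells carry Cd24a too, and their 5 markers summed to 6.47 to 7.63, 3.39 to 9.86 and 2.62 to 6.69 CPM, with 0 of 4 tested called in edgeR.

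Krt7, Krt19 and Krt8 are also expressed by the mesothelium on the liver surface, and the 7 mesothelial markers summed to 12.4 to 18.4 CPM in Flox, 9.41 to 12.7 in F4MKO and 5.75 to 10.3 in F4MKO + FSTL1. The highest F4MKO sum was below the Flox median of 16.9 CPM. In F4MKO + FSTL1 compared with F4MKO 1 of 7 markers fell, as did 11.2% of all genes tested. Of 6 pancreatic acinar genes, 4 had 3 counts or fewer in every library, with Prss2 and Pnlip at 0 counts in all F4MKO and all F4MKO + FSTL1 libraries. Of 5 gallbladder and mucous genes, Muc5b and Muc4 had 3 counts or fewer in every library and Tff2 had 7 or fewer. Tff3, a trefoil peptide of mucous cells, had 12 to 87 counts and means of 1.45, 2.14 and 1.30 CPM in Flox, F4MKO and F4MKO + FSTL1, with overlapping groups. Pigr, the receptor that carries IgA into bile, was at means of 1260, 1010 and 1500 CPM and was lowest in F4MKO. Of the 6 erythroid markers 3 were tested and 1 rose in F4MKO + FSTL1 compared with F4MKO, as did 3.07% of all genes tested. The 10 hepatocyte markers gave 0 calls in all 3 comparisons by edgeR, with 1, 3 and 0 at an unadjusted p under 0.05, which 16.7%, 35.4% and 13.2% of all genes tested had.

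**Figure D5:**
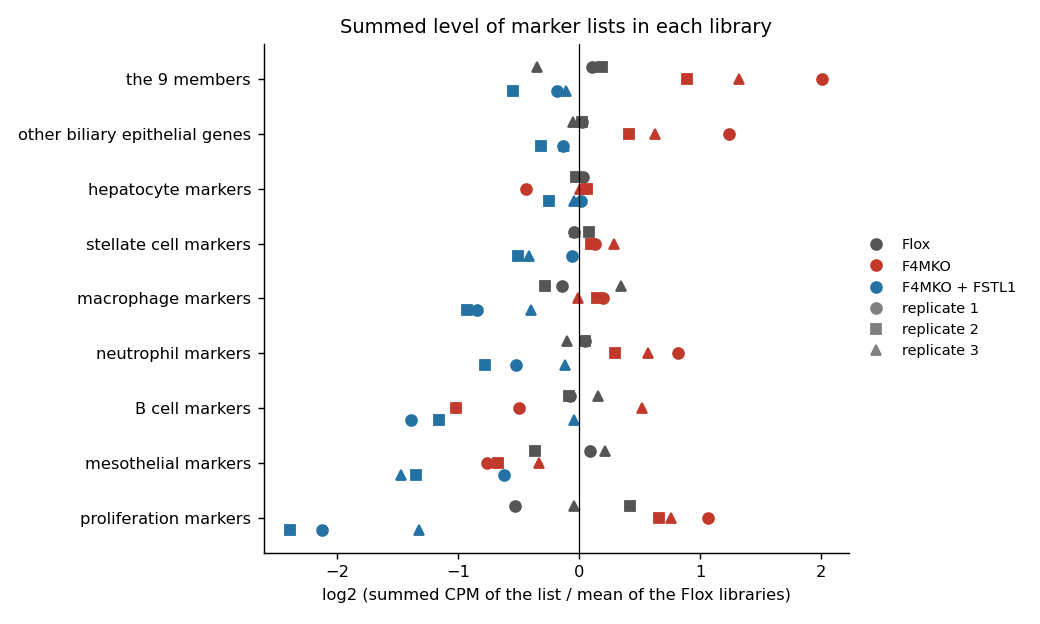
Summed CPM of the 9 biliary genes and of marker lists in each library, as log2 of the ratio to the mean of the Flox libraries (horizontal axis), with colours for groups and symbols for replicates. The biliary sum lies at 0.89 to 2.01 in F4MKO and at -0.55 to -0.11 in F4MKO + FSTL1, and the proliferation sum at 0.66 to 1.07 and -2.39 to -1.33.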

How the data were processed

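Liver RNA of 9 mice (3 Flox, 3 F4MKO, 3 F4MKO + FSTL1) was sequenced with 150 bp paired-end reads. Per the labels, reads were trimmed with Trim Galore 0.6.7, mapped to mm10 with HISAT2 2.2.1 and counted with featureCounts 2.0.1. The authors deposited these counts as whole numbers per gene and library, without normalization. The gene annotation, the use of strand and the treatment of reads from similar genes are not given in the sources used here.

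The differential test was run in edgeR 4.0.16 under R 4.3.3, on genes that passed filterByExpr (minimum count 10, minimum total 15). Libraries were scaled by TMM, and all 9 entered a single robust quasi-likelihood model. Calls needed a Benjamini-Hochberg adjusted p under 0.05 over 14379 genes and a fold change above 1.5, the thresholds in the study's methods. The p-values rest on 3 mice per group, and set each difference against a spread between mice estimated from all 9 libraries. The methods name DESeq2, which was run as an alternative (version 1.42.0) with the others given in the closing section. Replicate libraries differed by more than sampling noise. RPKM used the summed exon length of GENCODE vM21 (GRCm38).

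On simulated counts the fit recovered 90.5% of 200 changed genes (83% at 2-fold, 98% at 4-fold) among 14224 tested, and called 14 of 14024 unchanged genes. The changed genes were drawn from genes with a higher mean level than Cldn4 and Cldn7. No simulated library stood apart as F4MKO replicate 1 did, so these shares do not give the recovery for the biliary genes.

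The biliary genes, companion lists and marker lists were chosen with earlier results of these data known. Named genes are all 9 biliary genes, per companion list the called genes (at most the 5 with the smallest p in F4MKO + FSTL1 compared with F4MKO), Krt8, Krt18 and the 5 genes most like the biliary mean, by each of 2 measures. Sctr, Cdh1, Slc4a2, Aqp1, Cldn1, Cldn2, Cldn3, Hes1, Rbpj, Yap1, Csf3r, Gpm6a, Lrat, Dcn, Alas2 and the biliary genes too low for the test were added after their values were seen. Dll4, Ctgf, Cyr61, Fgfr2 and Amotl2 were added in the same way. Cldn5, Prss1, Cpa1 and Agr2 were not analysed here. Some genes of the companion lists are not reported here by name.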

Additional observations from a re-analysis of the deposited data

How the results depend on the processing

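The fall of the biliary genes in F4MKO + FSTL1 compared with F4MKO livers was called for 6 of 8 genes, Cldn4 included. With a library left out the count was 6 to 8, and Cldn7 was tested in 7 of these 9 fits. The count of 8, without F4MKO + FSTL1 replicate 3, held Sox9 and Cldn7, and Krt23 was called in no fit. Cldn7 entered these fits only through its F4MKO counts, because every other library held 7 or fewer, under the minimum of 10. No alternative took the count of 6 past 1.5-fold, and 0 genes were called against Flox in any. The count in F4MKO compared with Flox, 1 gene, was 5 with DESeq2, 4 without the filter on low counts, 0 in a fit of only the 6 libraries compared, 0 in a test against a fold change of 1.5, 2 without robust estimation (added after seeing the data) and 0 to 4 with a library left out. Over all genes tested, the 33 calls of this comparison became 338 with DESeq2, 287 without the filter, 0 in the fold change test, 213 with the replicate number as a block and 0 to 113 with a library left out. The 2055 calls in F4MKO + FSTL1 compared with F4MKO became 597 in the fold change test and 1308 to 2176 with a library left out (1329 without F4MKO replicate 1 and 1308 without F4MKO + FSTL1 replicate 2). The 2 calls in F4MKO + FSTL1 compared with Flox became 284 with DESeq2, 179 without the filter, 108 with the block, 1 without robust estimation, 0 in the fold change test, 0 in a fit of only the 6 libraries and 0 to 145 with a library left out (145 without F4MKO + FSTL1 replicate 3). Companion genes called in F4MKO compared with Flox went from 1 to 9 with DESeq2 and 6 without the filter. They were 0 in the fold change test, 2 without robust estimation and 0 to 4 with a library left out. In F4MKO + FSTL1 compared with F4MKO, 21 companion genes became 10 in the fold change test and 17 to 24 with a library left out. In F4MKO + FSTL1 compared with Flox the companion genes called were 2 with DESeq2, 2 without the filter and 0 to 1 with a library left out. With the replicate block, 5 biliary genes and 6 companion genes were called in F4MKO compared with Flox and 1 companion gene in F4MKO + FSTL1 compared with Flox. Same-numbered libraries were not taken as pairs, because nothing in the labels ties them and not every correlation of their deviations was above 0.1. Over the 9 pairs these lay between -0.0985 and 0.304, and the 3 pairs of replicate 3 had 0.169, 0.304 and 0.206.

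With a library left out, the direction turned for Krt23 in F4MKO + FSTL1 compared with F4MKO (-0.39 to 0.63) and, compared with Flox, for Sox9 (-0.59 to 0.074), Prom1 (-0.41 to 0.21) and, in fits that kept it, Cldn7 (-1.75 to 0.044). The cause of the differences between settings was not tested. With 14 and 9 summed counts in Flox and F4MKO + FSTL1, Cldn4 was too low to show a difference between these groups.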

Other observations

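The genes most like the biliary mean included some that are not on the biliary lists. Scara3, a scavenger receptor family member, was at means of 4.55, 16.8 and 2.29 CPM in Flox, F4MKO and F4MKO + FSTL1 livers and fell by 2.87 in F4MKO + FSTL1 compared with F4MKO (edgeR adjusted p = 0.00143). Lum (lumican), a proteoglycan of collagen matrix, was at 23.2, 41.4 and 11.6 CPM and fell by 1.84 (edgeR adjusted p = 0.00112). The calcium channel subunit Cacna2d1 fell by 1.28 and the potassium channel Kcnq1 by 0.80, with edgeR adjusted p of 0.0111 and 0.0304. Snx1, which encodes a sorting nexin, had a log2 fold change of -0.24 in the same comparison (edgeR adjusted p = 0.0945). Cacna2d1 and Kcnq1 were chosen for their likeness to the biliary mean over the 9 libraries, which holds the group differences. Scara3, Lum and Snx1 were chosen after the group means had been removed, and Snx1 had means of 22.3, 23.0 and 19.5 CPM in the 3 groups.

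Single markers of other cells also passed the test in F4MKO + FSTL1 compared with F4MKO livers. Csf3r of neutrophils fell by 1.03, Gpm6a of the mesothelium by 0.87, and the stellate cell genes Lrat and Dcn by 0.80 and 0.79. Alas2, the heme synthesis enzyme of erythroid cells, rose by 0.62, from 93.5 ± 14.8 to 143 ± 1.38 CPM (SD, n = 3, edgeR adjusted p = 0.00463).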
